A study of Mus musculus with 4 samples.

Results

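Cluster 10 of the authors' clustering of tumour-infiltrating immune cells held 403 of the 14491 cells that their table of CD45+ cells lists. Its members were the cells that this table numbers 10, matched to the matrices of unique molecular identifiers (UMIs, which mark captured transcripts one by one) by library and barcode. The cells carry the working name regulatory T cell-like, which was checked against the markers Foxp3, Itgae, Ikzf2 and Klrg1, and they were set against the 3426 cells of T cell clusters 3, 6, 8 and 9. All cells came from tumours transplanted into wild-type mice of the inbred strain 129S6. The mice received 200 µg of antibody into the peritoneum on days 3, 6 and 9 after the transplant. The antibody was RMP1-14, which blocks PD-1 (group aPD1), 9D9, which blocks CTLA-4 (group aCTLA4), both of them (the combination) or rat IgG2a as the control. The tumours were digested with collagenase, living CD45+ cells were sorted, and the 3′ ends of their transcripts were counted in droplets. There was 1 library per antibody group, and how many mice went into each is not stated in the sources used here. No test between antibody groups was therefore possible, and the 95% intervals on ratios, levels and shares cover counting error only. UMIs of 1 cell are not independent of each other, so these intervals are too narrow wherever few cells carry a gene.

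Regulatory T cells are T cells, mostly of the CD4 lineage, that hold other lymphocytes in check. They depend on the transcription factor Foxp3, take up interleukin-2 through a receptor that includes the product of Il2ra, and carry the inhibitory receptor CTLA-4. In tumours they are commonly activated, with high levels of costimulatory receptors of the TNF receptor family, and they are among the cells to which antibodies against CTLA-4 bind.

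Cluster 10 had 82 cells with 179846 UMIs in the aPD1 library, 48 cells with 109041 UMIs in the aCTLA4 library, 91 cells with 190698 UMIs in the combination library and 182 cells with 411523 UMIs in the control library. The median cell had between 1504 and 2015.5 UMIs in these libraries, against 1726 to 2394 in the other T cell clusters. Of the barcodes of listed cells, 109 occurred in more than 1 library; 6 cluster 10 cells had such a barcode, and none was shared by 2 cluster 10 cells. The macrophage gene Lyz2, which T cells should lack, had a UMI in 46.9% of cluster 10 cells and in 46.8% of the cells of the other T cell clusters, so transcripts of other cells were counted in both.

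Over all libraries, each of the 4 markers was detected in a larger share of cells in cluster 10 than in the other T cell clusters, which for Klrg1 rested on the control library. Foxp3 had a UMI in 28.0% of cluster 10 cells, against 1.11% of cells in clusters 3, 6, 8 and 9 and 0.154% of cells in the macrophage-like clusters 1 and 2, which should lack it. Ikzf2, which encodes the transcription factor Helios, had a UMI in 53.8% of cluster 10 cells, against 11.1% of the other T cells and 1.60% of the macrophage-like cells. Itgae, the alpha chain of the integrin that binds E-cadherin, had a UMI in 13.2% of cluster 10 cells, against 0.671% of the other T cells and 0.206% of the macrophage-like cells. Klrg1, an inhibitory lectin receptor of mature T cells, had one in 20.1%, against 6.57% of the other T cells and 0.489% of the macrophage-like cells. In cluster 10 of the aPD1, aCTLA4, combination and control libraries the Klrg1 shares were 6.10%, 4.17%, 7.69% and 36.8%, and in the other T cells 4.08%, 9.13%, 8.84% and 3.35%. The macrophage-like cells were sequenced more deeply, at a median of 3519 UMIs against 1653 in cluster 10, so depth was not the limit there. At least 1 of the 4 markers was seen in 272 cluster 10 cells (67.5%), at least 2 in 139 cells (34.5%) and all 4 in 5 cells, all of them from the control library. In the other T cell clusters at least 2 were seen in 1.90% of cells. Of the 172 listed cells with a Foxp3 UMI, 113 (65.7%) lay in cluster 10. Since the clusters were made from these same genes, the values describe the cluster and test nothing.

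Foxp3 is the gene the label rests on most, so the bases around its starts are shown first. The RefSeq table for GRCm38.p6 gives it 2 starts, and each window runs from 250 bases before to 50 bases after the start. Izumo1r, which encodes folate receptor 4, is shown because its level followed that of Foxp3 across clusters and libraries, and Gzmb, which encodes granzyme B, because it is an abundant gene whose level differed between antibody groups within the cluster. The windows lie at chrX:7579426-7579725 (plus strand) and chrX:7580233-7580532 (plus strand) for Foxp3, at chr9:14903718-14904017 (minus strand) for Izumo1r and at chr14:56262285-56262584 (minus strand) for Gzmb. Itgae, Ikzf2 and Klrg1 are named only. Capitals mark matches to the searched motifs.
Foxp3, start 1: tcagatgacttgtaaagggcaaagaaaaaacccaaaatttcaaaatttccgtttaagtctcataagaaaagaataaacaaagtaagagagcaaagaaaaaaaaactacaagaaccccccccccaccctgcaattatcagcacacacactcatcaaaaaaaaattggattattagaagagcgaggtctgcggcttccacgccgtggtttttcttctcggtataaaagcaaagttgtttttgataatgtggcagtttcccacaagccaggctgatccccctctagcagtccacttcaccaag
Foxp3, start 2: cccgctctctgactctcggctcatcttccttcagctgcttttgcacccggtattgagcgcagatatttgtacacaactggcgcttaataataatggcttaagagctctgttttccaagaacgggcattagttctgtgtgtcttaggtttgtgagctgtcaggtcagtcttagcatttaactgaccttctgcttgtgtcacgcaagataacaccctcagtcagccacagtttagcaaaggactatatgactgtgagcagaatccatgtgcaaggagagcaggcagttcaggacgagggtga
Izumo1r: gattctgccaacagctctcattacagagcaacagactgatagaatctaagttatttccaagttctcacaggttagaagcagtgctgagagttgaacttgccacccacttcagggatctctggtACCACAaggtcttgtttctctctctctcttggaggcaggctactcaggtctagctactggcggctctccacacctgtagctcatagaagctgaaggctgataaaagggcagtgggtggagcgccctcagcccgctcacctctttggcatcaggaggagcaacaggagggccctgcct
Gzmb: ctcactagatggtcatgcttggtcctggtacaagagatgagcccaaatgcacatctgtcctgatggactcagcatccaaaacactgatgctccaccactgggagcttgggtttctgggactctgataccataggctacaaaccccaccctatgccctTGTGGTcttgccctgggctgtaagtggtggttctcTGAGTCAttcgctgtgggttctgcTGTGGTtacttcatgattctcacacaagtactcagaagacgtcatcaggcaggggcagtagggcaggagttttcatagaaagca
The motifs searched on both strands were the RUNX core TGTGGT, the AP-1 site TGANTCA, the cyclic AMP response element TGACGTCA and the forkhead site TGTTTAC, and no matches overlapped. The Izumo1r window held the RUNX core once, read as ACCACA, 127 bases before the start. The Gzmb window held the RUNX core 93 and 34 bases before the start and an AP-1 site, TGAGTCA, 58 bases before it. Neither Foxp3 window held any of these letters, which says only that they are not in these windows. Of 32817 promoter windows of the same length, 16.8% held the RUNX core, 7.81% the AP-1 site, 1.79% the cyclic AMP response element and 3.65% the forkhead site, so that single matches are common.

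The label held for only one of the portions of cluster 10. The authors' second table, which clusters the lymphoid cells by themselves, put 281 of the 403 cells in its cluster 7, 73 in its cluster 11 and the remaining 49 in clusters 1, 2, 3, 4, 5, 6 and 8. Among the lymphoid cluster 7 cells, Foxp3 had a UMI in 39.1%, against 2.74% in the lymphoid cluster 11 cells and 2.04% in the remaining cells. Ikzf2 had a UMI in 70.5%, against 21.9% and 6.12%, and Izumo1r in 59.4%, against 9.59% and 24.5%. Cd8a, a chain of the CD8 co-receptor, had no UMI in any of the 281 lymphoid cluster 7 cells, which allows a share of cells with a UMI of up to 1.07% but does not show that the gene was silent, while 39.7% of the lymphoid cluster 11 cells held one. By Foxp3, Ikzf2 and Izumo1r, regulatory T cell-like is used here for the lymphoid cluster 7 cells, and the other portions are called by their cluster numbers. The median cell had 1449 UMIs among lymphoid cluster 7 cells, 3218 among lymphoid cluster 11 cells and 2274 among the remaining cells, so the portion with the most Foxp3 was the shallowest and the Cd8a shares are not matched for depth.

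**Figure D1:**
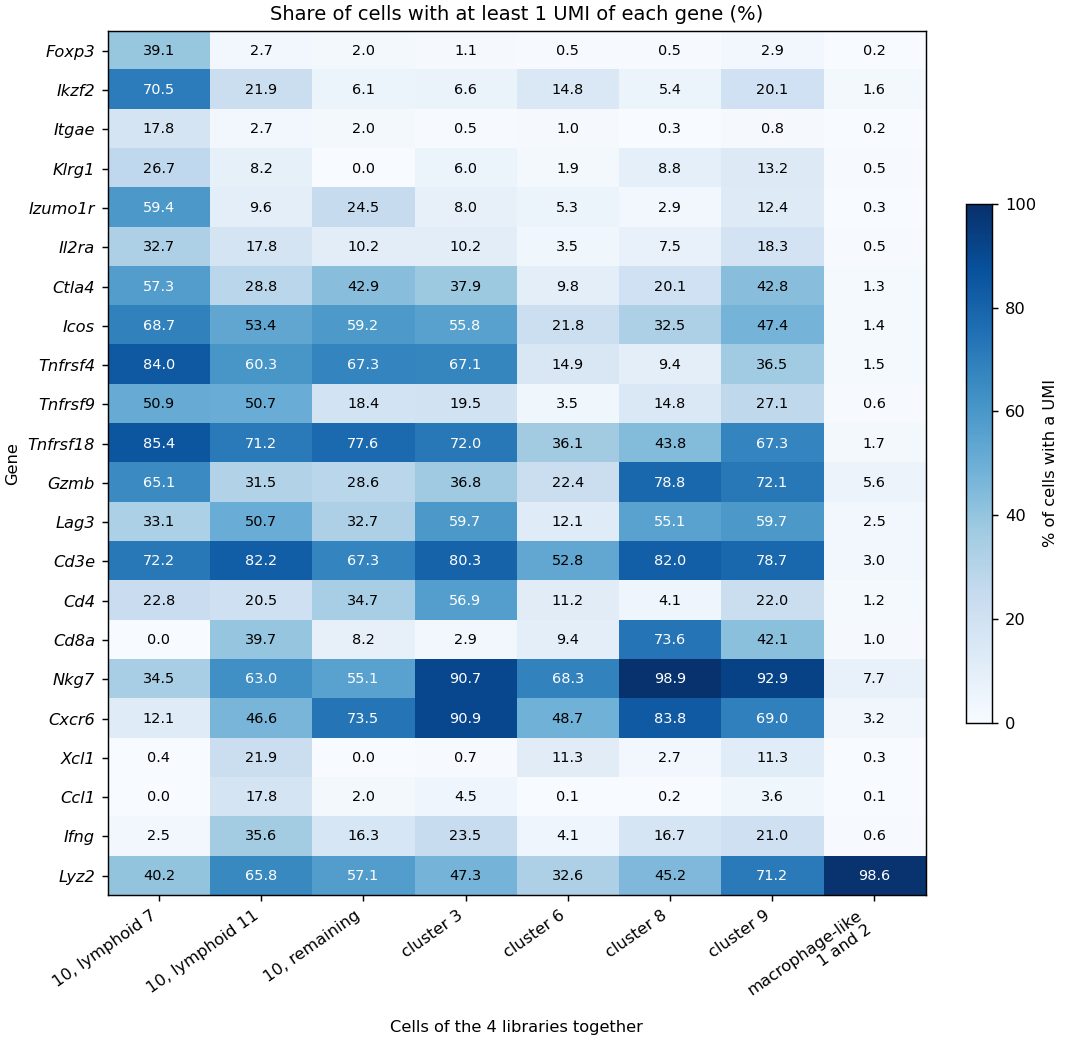
Percentage of cells with at least 1 UMI (colour and printed value) for 22 genes (rows) in the 3 portions of cluster 10, in T cell clusters 3, 6, 8 and 9 and in macrophage-like clusters 1 and 2 (columns), over all 4 libraries. Foxp3, Ikzf2, Itgae, Klrg1 and Izumo1r are highest in the lymphoid cluster 7 cells of cluster 10, and Cd8a, Xcl1, Ccl1 and Ifng are seen in the lymphoid cluster 11 cells.

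The lymphoid cluster 11 cells were set apart by cytokine transcripts concentrated in few cells. Xcl1, a chemokine that attracts cross-presenting dendritic cells, had 116, 159, 1 and 147 UMIs in the aPD1, aCTLA4, combination and control libraries, in 4, 6, 1 and 5 cells. Ccl1, the ligand of the receptor Ccr8, had 78, 9, 37 and 21 UMIs in 4, 1, 3 and 5 cells. Ifng, the gene of interferon gamma, had 137, 58, 46 and 14 UMIs in 9, 5, 8 and 4 cells. All these cytokines were thus found in every library, with Xcl1 nearly absent from the combination library. Lymphoid cluster 7 cells held 0 Ccl1 UMIs and had an Xcl1 UMI in 0.356% of cells and an Ifng UMI in 2.49%, against 17.8%, 21.9% and 35.6% of the lymphoid cluster 11 cells. Crtam, an adhesion receptor of activated cytotoxic cells, had a UMI in 1.07% of lymphoid cluster 7 cells and 23.3% of lymphoid cluster 11 cells. Pdcd1, the gene of PD-1, had one in 9.61% and 39.7%. Cxcr6, a chemokine receptor of tissue-resident and effector T cells, had a UMI in 12.1% of lymphoid cluster 7 cells, 46.6% of lymphoid cluster 11 cells and 73.5% of the remaining cells, against 73.6% of the other T cell clusters. In this gene the remaining cells resembled the other T cell clusters more than they did the lymphoid cluster 7 cells.

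Against clusters 3, 6, 8 and 9 of the same library, cluster 10 had 25 genes at least 2-fold higher in all 4 libraries, which is 0.451% of 5539 genes, and 102 genes at least 2-fold lower, which is 1.84%. In UMIs per 1000000 UMIs of the same cells (CPM), Foxp3 stood at 133, 119, 142 and 226 in cluster 10 of the aPD1, aCTLA4, combination and control libraries, and no other T cell cluster exceeded 20.7 CPM in any library. Izumo1r was higher by 2.98, 2.81, 3.97 and 2.82 on the log2 scale and Ikzf2 by 2.41, 1.77, 3.28 and 2.87. Itgae had 10 UMIs in cluster 10 of the aPD1 library and 0 in the other T cell clusters there, which makes it higher by at least 4.89 with a count of 0 read as 3 UMIs, and it was higher by 2.58, 3.33 and 4.00 in the aCTLA4, combination and control libraries. Foxp3, Izumo1r, Ikzf2 and Itgae thus stood higher in cluster 10 in every library. Klrg1 did not, with log2 differences of 0.23, -0.69, 0.0021 and 3.68 in the aPD1, aCTLA4, combination and control libraries. Tnfrsf9, a costimulatory receptor of activated T cells, was higher by 1.92, 1.66, 1.5 and 2.62, and Ifi27l2a, an interferon-induced gene seen in 337 of the 403 cells, by 2.38, 1.39, 1.38 and 1.94. The other genes with the steadiest excess were Rln3 (relaxin 3), Tnfsf11 (the ligand of RANK), Igsf23, Bmyc, Arl5a, Ecm1, Wdr77, Il4ra (the interleukin-4 receptor chain) and Matk (a kinase that opposes Src kinases).

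Granzymes and cell cycle genes were among the genes with the steadiest deficit, and for the cell cycle genes this rested on cluster 9. Gzma, the gene of granzyme A, was lower by -5.63, -3.77, -3.96 and -3.85 on the log2 scale in the 4 libraries, with 32 UMIs in 29 cluster 10 cells against 7775 in the others. Gzmd, another granzyme, had 3 UMIs in cluster 10 and 786 in the others, and Klra7, an inhibitory receptor of natural killer cells, had 5 and 730. The cell cycle genes Nusap1, Ube2c, Ccna2, Cdca3, Casc5 and Hist1h2ap were also among the 10 lowest. Ccna2, the cyclin of DNA replication and mitosis, had 1 UMI in cluster 10 and 635 in the others. Mki67, a marker of dividing cells, had 2, 0, 2 and 7 UMIs in cluster 10 of the aPD1, aCTLA4, combination and control libraries. Over all libraries it stood at 12.3 CPM in cluster 10, against 9.45, 9.45, 8.64 and 208 CPM in clusters 3, 6, 8 and 9, so only cluster 9 stood above cluster 10. With cluster 9 left out of the comparison, the number of genes at least 2-fold lower in all libraries was 48. Serpine2, an inhibitor of serine proteases, had 0 UMIs in cluster 10 and 387 in the other clusters.

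By gene list, 13 of the 20 regulatory T cell identity genes reached 50 UMIs on their higher side. Of these 13, 12 were higher in cluster 10 in all 4 libraries and none was lower in all 4. Genes high in cluster 10 thus entered by their counts there, and the genes under this limit were not counted. The same limit holds for the other lists, whose counts describe the cluster and test nothing. Of all 5539 genes, 9.21% were higher by any amount and 13.8% lower by any amount in all 4 libraries, beside which these list counts are to be read. The median log2 difference of the identity list was 1.91, beside -0.17 over all genes. Of 9 costimulatory receptor genes, 6 were higher in all 4 libraries and none was lower, with a median of 1.37. Tnfrsf4, the gene of OX40, was higher by 2.11, 1.11, 1.59 and 2.44, and Tnfrsf18, the gene of GITR, by 1.21, 1.13, 0.82 and 1.40. Both receptors thus stood above the other T cells in each library. Of 19 cytotoxic genes, 14 were lower in all 4 libraries and 2 were higher, with a median of -1.35, and of 20 proliferation genes 14 were lower and 1 was higher, with a median of -1.73. Against clusters 3, 6 and 8 alone, 13 of 18 cytotoxic genes were lower, with a median of -1.83. Of the 21 proliferation genes only 8 reached 50 UMIs on their higher side there. These were all higher in all 4 libraries, with a median of 1.0, and in the lymphoid cluster 7 cells 2 of 6 were. Since a gene enters by its higher side, these counts do not show that the proliferation list as a whole was higher. Of the proliferation genes counted, none was lower in all 4 libraries without cluster 9. Of 24 interferon-induced genes, 8 were higher and 1 was lower in all 4 libraries, with a median of 0.36. In the lymphoid cluster 7 cells alone, 56 genes were at least 2-fold higher in all 4 libraries (1.13% of 4945) and 108 were at least 2-fold lower (2.18%), and 9.5% were higher and 13.7% lower by any amount in all 4. There the interferon-induced list had 14 of 21 genes higher in all 4 libraries and none lower, with a median of 0.74, and the class I antigen presentation list 13 of 16 and none, with a median of 0.53, beside -0.31 over all genes.

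Across the 5 T cell clusters and 4 libraries, which gives 20 points that share cells of a library and differ in depth, the genes whose levels ranked most like Foxp3 were Slc1a5 (a glutamine transporter, Spearman correlation 0.785), Ubfd1 (0.762), Nol7 (0.757), Izumo1r (0.753) and Cpsf3 (0.751) of 6709 genes. These correlations are a description and carry no test.

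Cells of cluster 10 made up a smaller share of the T cells in each antibody library than in the control library. Of the cells in T cell clusters 3, 6, 8, 9 and 10, cluster 10 held 11.8% in the aPD1 library (82 of 695, Clopper-Pearson interval 9.49 to 14.4), 6.23% in the aCTLA4 library (48 of 771, 4.63 to 8.17), 7.25% in the combination library (91 of 1256, 5.87 to 8.82) and 16.4% in the control library (182 of 1107, 14.3 to 18.8). The share was lowest with aCTLA4 and the combination and highest in the control. The ratio to control was 0.718 (0.546 to 0.936) with aPD1, 0.379 (0.270 to 0.523) with aCTLA4 and 0.441 (0.339 to 0.570) with the combination. The ratio of the combination to aPD1 was 0.614 (0.451 to 0.838) and that of the combination to aCTLA4 was 1.16 (0.812 to 1.69). Over all listed cells these ratios were 0.961 (0.705 to 1.31) and 1.60 (1.12 to 2.32), so the order of the antibody libraries depends on the cells counted. A share can move because other cells do, and cluster 6 held 27.6%, 24.3%, 32.6% and 18.4% of the T cells in the aPD1, aCTLA4, combination and control libraries. Of all listed cells, cluster 10 held 2.40%, 1.44%, 2.31% and 4.80% in these libraries, which keeps the control highest.

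**Figure D2:**
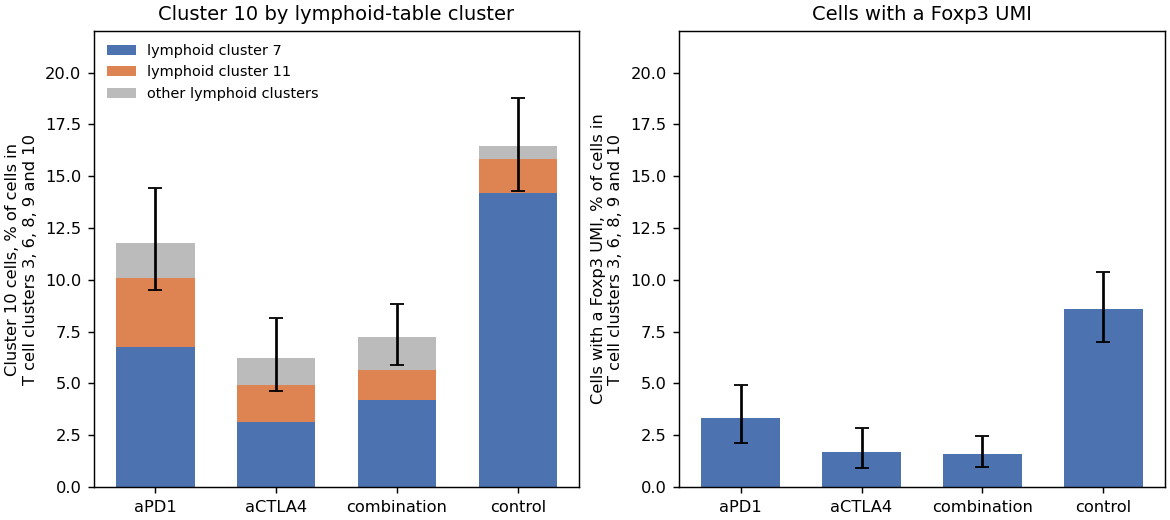
Left, cluster 10 cells as a percentage of the cells in T cell clusters 3, 6, 8, 9 and 10 in each library (1 library per bar), split by cluster of the lymphoid table. Right, cells of these clusters with a Foxp3 UMI as a percentage of the same cells. Black lines are exact 95% Clopper-Pearson intervals of the whole bar. The control library is highest in both panels, at 16.4% and 8.58%, and the lymphoid cluster 7 portion carries the difference.

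The difference lay in the lymphoid cluster 7 cells. They were 6.76%, 3.11%, 4.22% and 14.2% of the T cells in the aPD1, aCTLA4, combination and control libraries, on 47, 24, 53 and 157 cells. The ratio to control was 0.477 (0.337 to 0.664) with aPD1, 0.219 (0.137 to 0.339) with aCTLA4 and 0.298 (0.214 to 0.409) with the combination, all further from 1 than for cluster 10 as a whole. The lymphoid cluster 11 cells were 3.31%, 1.82%, 1.43% and 1.63% of the T cells, and the remaining cells 1.73%, 1.30%, 1.59% and 0.632%. Neither of these portions was highest in the control library. As a result lymphoid cluster 7 cells made up 57.3%, 50% and 58.2% of cluster 10 in the aPD1, aCTLA4 and combination libraries, against 86.3% in the control library. A count that does not use the border between cluster 10 and the other T cell clusters was also highest in the control library: a Foxp3 UMI was found in 23 of 695 T cells (3.31%) with aPD1, 13 of 771 (1.69%) with aCTLA4, 20 of 1256 (1.59%) with the combination and 95 of 1107 (8.58%) in the control. With each cell thinned to 1000 UMIs, Foxp3 was seen in 9 of 626 cells (1.44%), 7 of 732 (0.956%), 14 of 1106 (1.27%) and 56 of 1105 (5.07%) of these libraries. The control library was highest there too, but cells under 1000 UMIs were left out. Among the lymphoid cluster 7 cells such cells occurred in the antibody libraries only. The lowest depths there were 830, 888 and 796 UMIs with aPD1, aCTLA4 and the combination, against 1002 in the control. The thinned shares are thus not a matched comparison. Klrg1, a marker checked above, and Gzmb also differed between libraries within the lymphoid cluster 7 cells. Fewer cells of a type and cells of that type assigned elsewhere thus cannot be told apart by cluster alone.

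Within cluster 10, most of the genes on which its name rests had lower levels in the antibody libraries than in the control library. At least 2-fold differences from control were found for 661 of 3682 genes with aPD1 (18%; 274 higher, 7.44%, and 387 lower, 10.5%). With aCTLA4 they were found for 806 of 3371 genes (23.9%; 300 higher, 8.9%, and 506 lower, 15%), and with the combination for 557 of 3714 genes (15%; 228 higher, 6.14%, and 329 lower, 8.86%). Under TMM scaling the split with aCTLA4 was 205 higher and 614 lower. Ikzf2 stood at 478, 284, 404 and 765 CPM in the aPD1, aCTLA4, combination and control libraries. Ctla4 stood at 289, 266, 566 and 826 CPM, and Gzmb at 1429, 706, 666 and 3064. Klrg1 stood at 33.4, 27.5, 52.4 and 330 CPM on 6, 3, 10 and 136 UMIs, and Itgae at 55.6, 9.17, 31.5 and 112 CPM on 10, 1, 6 and 46 UMIs. The control library was highest for all 5 genes, and among Ikzf2, Ctla4 and Gzmb the combination stood closer to it than either single antibody did for Ctla4 only. On the log2 scale, Foxp3 was at -0.74 (-1.47 to -0.10) with aPD1, -0.88 (-1.88 to -0.08) with aCTLA4 and -0.66 (-1.35 to -0.04) with the combination relative to control.

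Of 15 regulatory T cell identity genes, 14 were below control with aPD1, 14 with aCTLA4 and 13 with the combination, of which 5, 9 and 4 by at least 2-fold, beside 10.5%, 15% and 8.86% of all genes that were 2-fold lower. The median log2 ratios of the list were -0.68, -1.23 and -0.74, beside -0.04, -0.05 and -0.05 over all genes. Of the key genes measured in all 3 comparisons, 22 of 29 were below control with each antibody and 3 were above it with each, namely Cxcr6, Havcr2 and Rora. In the lymphoid cluster 7 cells alone, 12 of 26 were below and 2 above with each. The share of all genes with the same direction in all 3 comparisons is not given here, and these share 1 control library. In all of cluster 10, Cxcr6 stood at 484, 633 and 577 CPM in the aPD1, aCTLA4 and combination libraries, against 204 in the control library. Havcr2, the gene of the inhibitory receptor TIM-3, stood at 234, 64.2, 42.0 and 34.0, but its log2 ratio with aPD1 was 2.75 with all cells and 0.25 without the 1 cell that held the most. The 22 cytosolic ribosomal protein genes lay slightly above control, 19, 22 and 22 of them, with median log2 ratios of 0.15, 0.29 and 0.24.

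These values mix the level in a cell type with the makeup of the cluster, which differed between libraries as given above. In the lymphoid cluster 7 cells alone, 215 of 2802 genes (7.67%) were at least 2-fold higher and 314 (11.2%) at least 2-fold lower than control with aPD1, 273 of 2611 (10.5%) and 430 (16.5%) with aCTLA4, and 223 of 2848 (7.83%) and 353 (12.4%) with the combination. The median cell had 1088, 1130.5, 1207 and 1618 UMIs in the aPD1, aCTLA4, combination and control libraries, so the control cells were the deepest. Foxp3 stood at 359, 353, 360 and 276 CPM in the aPD1, aCTLA4, combination and control libraries, on 23, 12, 27 and 92 UMIs. The control library was thus the lowest there, and the log2 ratios to control of 0.41 (-0.34 to 1.05), 0.41 (-0.65 to 1.23) and 0.40 (-0.29 to 1.02) all had intervals that include 0. Ikzf2 stood at 1109, 794, 946 and 929 CPM, with log2 ratios of 0.26 (-0.14 to 0.63), -0.20 (-0.85 to 0.34) and 0.03 (-0.37 to 0.40). Thinned to 1000 UMIs per cell, 27.6%, 25.0%, 28.6% and 28.0% of the 29, 16, 42 and 157 cells deep enough had a Foxp3 UMI, against 38.3%, 29.2%, 32.1% and 43.3% before thinning. Neither gene was thus separated from control in these cells at this depth. Itgae stood at 141, 29.4, 66.7 and 135 CPM on 9, 1, 5 and 45 UMIs, which left it level with control only in the aPD1 library and rests on few UMIs elsewhere.

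**Figure D3:**
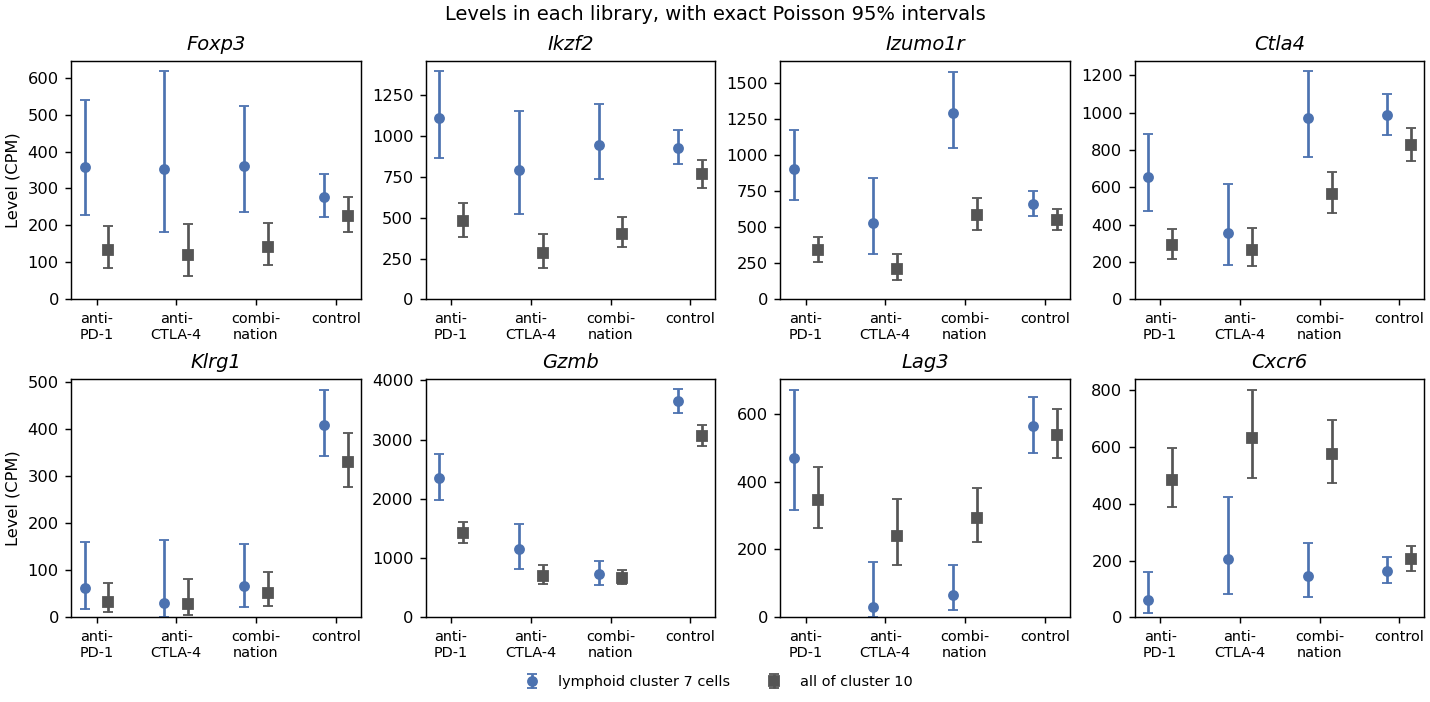
Levels of 8 genes in UMIs per 1000000 UMIs of the same cells (vertical axes, linear from 0) in each library, for the lymphoid cluster 7 cells of cluster 10 (circles) and all of cluster 10 (squares), with exact 95% Poisson intervals. Foxp3 is lower in the antibody libraries over all of cluster 10 but not in the lymphoid cluster 7 cells, whereas Klrg1 and Gzmb are highest in the control library in both.

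Klrg1, Gzmb and Lag3 differed between libraries in the lymphoid cluster 7 cells as well. Klrg1 had 4, 1, 5 and 136 UMIs in the aPD1, aCTLA4, combination and control libraries, in 4 of 47, 1 of 24, 3 of 53 and 67 of 157 cells. Its level was 62.5, 29.4, 66.7 and 408 CPM, and the log2 ratio to control was -2.54 (-4.60 to -1.32) with aPD1, -3.21 (-9.11 to -1.29) with aCTLA4 and -2.48 (-4.26 to -1.35) with the combination. It was the only key gene measured in all 3 comparisons that was at least 2-fold lower in each of them, out of 26 in these cells. The thinned share of cells with a Klrg1 UMI was 6.90%, 0%, 4.76% and 28.7%, so the control library was also highest at equal depth.

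Gzmb, which regulatory T cells can use to kill, stood at 2343, 1148, 733 and 3647 CPM in the lymphoid cluster 7 cells of the aPD1, aCTLA4, combination and control libraries. Its log2 ratio to control was -0.63 (-0.89 to -0.39) with aPD1, -1.65 (-2.17 to -1.21) with aCTLA4 and -2.30 (-2.73 to -1.92) with the combination. The thinned share of cells with a Gzmb UMI was 69.0%, 31.2%, 31.0% and 71.3%, which places aPD1 beside the control and the other libraries together below them. Lag3, an inhibitory receptor that binds class II molecules, had 30, 1, 5 and 188 UMIs and stood at 469, 29.4, 66.7 and 563 CPM. Its log2 ratio to control was -0.25 (-0.87 to 0.30) with aPD1, -3.68 (-9.57 to -1.76) with aCTLA4 and -2.95 (-4.72 to -1.83) with the combination. Lag3 thus also set the aCTLA4 and combination libraries apart from the others. Ccl4, a chemokine of activated T cells and macrophages, had 0 UMIs in the aCTLA4 library and 349 in the control library, so it was lower by at least 3.57 on the log2 scale, with a count of 0 read as 3 UMIs.

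Macrophage transcripts were also highest in the control library. The 10 macrophage markers summed to 1062, 265, 547 and 3380 CPM in the lymphoid cluster 7 cells of the aPD1, aCTLA4, combination and control libraries, against 33526, 35538, 33826 and 38465 in the macrophage-like clusters. Apoe and Ly6c2 were at 0 in the aPD1 library, Adgre1, Apoe, C1qa, C1qc, Csf1r and Fcgr1 in the aCTLA4 library and Adgre1, Apoe and Fcgr1 in the combination library, while all 10 markers were found in the control library. Their part in the differences of Klrg1, Gzmb, Lag3 and Ccl4 was not tested. The macrophage-like clusters themselves had a UMI of Klrg1 in 0.489% of cells, of Gzmb in 5.56% and of Lag3 in 2.50%. The share for Ccl4, a chemokine that macrophages also make, is not given here, so these values do not cover it. The 9 dendritic cell markers summed to 859, 383, 239.9 and 2218 CPM in the lymphoid cluster 7 cells, on 1, 1, 2 and 3 detected genes, and Clec9a, Xcr1 and Flt3 were at 0 in all 4 libraries. The 9 natural killer cell markers summed to 203, 88.3, 120.0 and 303 CPM, with Eomes at 0 in all 4 libraries, and the mast cell markers were at 0 throughout. The 6 general T cell markers summed to 4640, 4708, 4626 and 4549 CPM and so were level. In all of cluster 10 the same macrophage markers summed to 912, 486, 2601 and 2880 CPM, and 1 cell of the combination library held 267 of the Lyz2 UMIs.

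**Figure D4:**
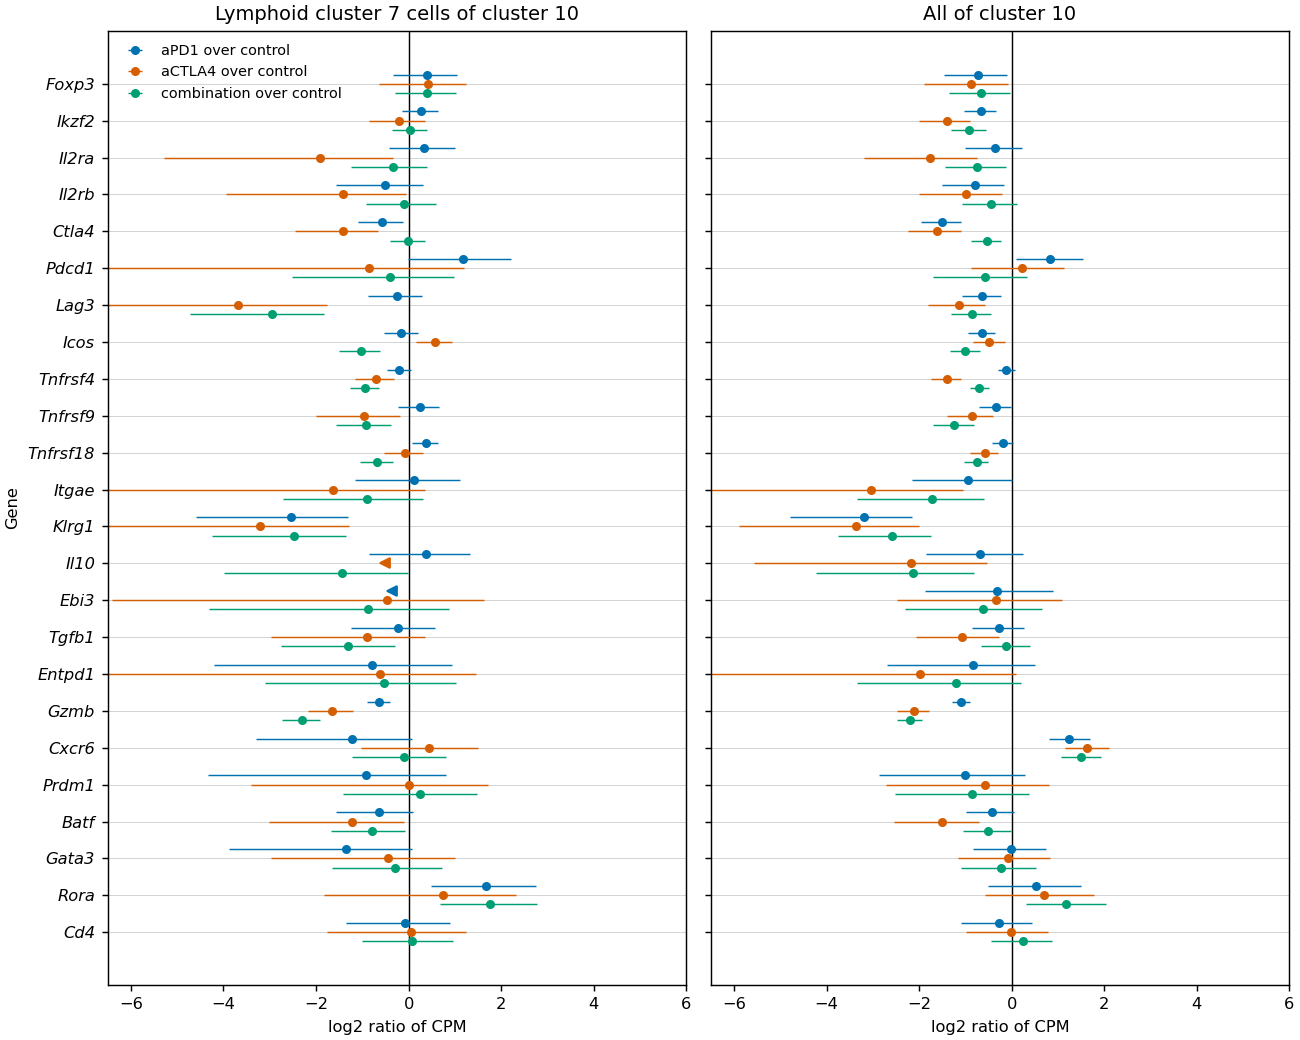
Log2 ratios of CPM of each antibody library to the control library for 24 key genes (rows), in the lymphoid cluster 7 cells of cluster 10 (left) and all of cluster 10 (right). Points carry exact 95% counting intervals, which are cut at the edge of the axis where they run further, and a triangle marks the bound for a gene with 0 UMIs in the antibody library. Klrg1 and Gzmb lie left of 0 for all 3 antibodies in both panels, whereas Foxp3 lies right of 0 for all 3 in the left panel and left of 0 in the right panel.

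Costimulatory receptors showed smaller differences in the lymphoid cluster 7 cells. Tnfrsf4 stood at 2187, 1530, 1306 and 2523 CPM in the aPD1, aCTLA4, combination and control libraries, and Tnfrsf18 at 2062, 1501, 1000 and 1603. Tnfrsf9 stood at 844, 353, 373 and 719. The combination library was lower than control for all 3 receptors, with log2 ratios of -0.94 (-1.27 to -0.65) for Tnfrsf4, -0.67 (-1.05 to -0.33) for Tnfrsf18 and -0.92 (-1.57 to -0.38) for Tnfrsf9. With aPD1, Tnfrsf18 was above control at 0.37 (0.08 to 0.64). Icos, a costimulatory receptor of the CD28 family, stood at 1156, 1913, 627 and 1295, but 1 aCTLA4 cell held 42 UMIs and the log2 ratio with aCTLA4 was 0.57 with it and -0.86 without it. All 7 costimulatory genes measured were below control with the combination, with a median log2 ratio of -0.67, against 5 of 8 with aPD1 (median -0.18) and 5 of 8 with aCTLA4 (median -0.40). Of those 7 costimulatory genes, 1 was at least 2-fold lower with the combination, which is near the 12.4% of all genes that were.

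The receptors and cytokines of the regulatory programme were thinner in counts. Il2ra stood at 344, 58.8, 213 and 276 CPM in the lymphoid cluster 7 cells of the aPD1, aCTLA4, combination and control libraries, the aCTLA4 value resting on 2 UMIs. Il2rb, the beta chain of the same receptor, stood at 187, 88.3, 253 and 276. Ctla4 stood at 656, 353, 973 and 986, with log2 ratios to control of -0.57 (-1.09 to -0.12), -1.42 (-2.45 to -0.66) and -0.01 (-0.41 to 0.35), so that it was lower with each single antibody and close to control with the combination. Izumo1r stood at 906, 530, 1293 and 659, with a log2 ratio of 0.98 (0.61 to 1.32) for the combination. Il10, an immunosuppressive cytokine, had 10, 0, 3 and 42 UMIs, and Tgfb1, another, stood at 203, 118, 93.3 and 246 CPM. Ebi3, a subunit of interleukin-35, had 0, 1, 2 and 20 UMIs, and Entpd1, an ectonucleotidase of adenosine production, had 2, 1, 3 and 22. For Il10, Tgfb1, Ebi3 and Entpd1 the control library held most of the UMIs along with most of the cells. The level of Tgfb1 was lower with the combination, with an interval of 37.5 to 192 CPM against 195 to 305 in the control library. Its intervals with aPD1 (108 to 347) and aCTLA4 (32.1 to 301) overlapped that of the control. Levels could not be separated at this depth for Ebi3 and Entpd1. Nt5e, the next enzyme of that pathway, had 0, 2, 1 and 2 UMIs.

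Transcription factors and homing receptors gave few steady differences. Rora, a nuclear receptor of tissue regulatory T cells, stood at 187, 88.3, 200 and 59.9 CPM in the lymphoid cluster 7 cells of the aPD1, aCTLA4, combination and control libraries, with log2 ratios to control of 1.67 (0.48 to 2.75), 0.75 (-1.84 to 2.31) and 1.75 (0.67 to 2.78). Of the 26 key genes measured in all 3 comparisons, only Rora and Foxp3 were above control with all 3 antibodies in these cells. Batf stood at 234, 147, 213 and 378, Gata3 at 46.9, 88.3, 107 and 138, and Prdm1 at 31.2, 58.8, 80.0 and 71.9. Ikzf4, a relative of Ikzf2, had 3, 1, 2 and 15 UMIs, and Tcf7, a factor of memory and naive cells, had 1, 1, 3 and 1. Ccr8, a receptor of tumour regulatory T cells, had 2, 0, 0 and 18 UMIs. Ccr7, a lymph node homing receptor, had 30 UMIs in 4 combination cells against 8 in 6 control cells. Cd4, the co-receptor, was level, at 141, 147, 160 and 156. Of the remaining key genes, Pdcd1 had 11, 1, 4 and 26 UMIs, Havcr2 had 2, 0, 0 and 11, Tigit had 0, 1, 3 and 12, Areg had 2, 0, 11 and 17, and Il1rl1 had 4, 0, 3 and 3.

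By list, 8 of 14 regulatory T cell identity genes were below control in the lymphoid cluster 7 cells with aPD1, 11 of 13 with aCTLA4 and 10 of 13 with the combination, of which 0, 6 and 2 by at least 2-fold. Of all genes, 11.2%, 16.5% and 12.4% were 2-fold lower there, so the count of 2 with the combination is near the background and the count of 0 with aPD1 is below it. The median log2 ratios were -0.18, -0.97 and -0.39, beside 0.00, -0.01 and -0.03 over all genes, so that with aCTLA4 a list-wide lower level was left in these 24 cells. Of 6 cytotoxic genes, 4, 6 and 6 were below control, of which 2, 5 and 5 by at least 2-fold, with medians of -0.74, -3.08 and -1.45. The members furthest from control were Ccl4, Cst7, Ccl3 and Ccl5 with aCTLA4 and Gzmb, Ccl4, Ccl3 and Nkg7 with the combination. The list thus includes chemokine genes such as Ccl4, which macrophages also make. Macrophage transcripts were highest in the control library as well, and their part in these counts was not tested. The interferon-induced genes, of which 17 of 21, 17 of 20 and 18 of 21 were below control in all of cluster 10, had 7 of 20, 10 of 20 and 13 of 21 below control in the lymphoid cluster 7 cells, with medians of 0.15, 0.03 and -0.13.

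The genes with the extreme ratios to control in cluster 10 were often the product of 1 or a few cells. Of the genes at least 2-fold apart from control, 27.2% with aPD1, 19.5% with aCTLA4 and 31.6% with the combination had 50% or more of their UMIs on the higher side in 1 cell. With aPD1, Psrc1 had 45 UMIs and the type 2 cytokine gene Il5 had 43 UMIs, each in 1 cell, and Calca, the gene of calcitonin and its related peptide, had 36 UMIs in 2 cells. Cacfd1 and Icam2, an adhesion molecule, had 62 UMIs in 7 cells and 45 in 8, against 4 and 4 in the control library. With aCTLA4, Rsph9 had 42 UMIs in 1 cell, Gtpbp3 27 in 2, Ep400 43 in 3, Pitpnb 49 in 8 and Top2b, a DNA topoisomerase, 70 in 9. With the combination, Engase had 39 UMIs in 2 cells, Dsel 36 in 3, Penk, which encodes enkephalins, 88 in 2, BC030336 40 in 2 and Bsdc1 48 in 7. Of these, only Top2b and Pitpnb with aCTLA4, Icam2 and Cacfd1 with aPD1 and Bsdc1 with the combination were seen in more than 3 cells of the antibody library. Among the lowest genes, the macrophage gene Apoe had 1 UMI with aPD1 and 0 with aCTLA4, against 75 in the control library, and C1qc, a complement subunit of macrophages, had 0 with aCTLA4 against 78. Clec4n, a myeloid lectin, had 0 with aCTLA4 against 55. Xcl1 had 1 UMI with the combination against 148 UMIs in 6 control cells. Ambra1 had 1, 0 and 1 UMIs against 47 in 6 control cells, Glb1l 1 with aPD1 and 0 with the combination against 47 in 2 control cells, and Sh2b1 2 with aPD1 and 0 with aCTLA4 against 57 in 12 control cells. N4bp2l2 had 2 with aPD1 against 56, Sept2 had 0 with the combination against 42 in 5 control cells, and 2810004N23Rik had 5 against 96 in 22 control cells. In the lymphoid cluster 7 cells, 2810004N23Rik had 0 UMIs with each antibody against 91 in 18 control cells. Cst7, an inhibitor of lysosomal proteases, had 0 with aCTLA4 against 93 UMIs in 63 control cells. Ltb4r1, a leukotriene receptor, had 0 with the combination against 50 in 33 control cells, and Samm50 had 0 with aPD1 against 42 in 25. Cst7, Ltb4r1 and Samm50 were thus spread over many control cells.

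The key gene Ctla4, and Izumo1r, which is not in the set of key genes, stood higher in the combination library than in the library of either single antibody. They were not alone in this. Several key genes, among them Foxp3, Il2rb, Ccr7, Rora and Cd4, were also highest with the combination among the antibody libraries of cluster 10. In all of cluster 10, 177 of 2542 genes (6.96%) were at least 2-fold higher and 197 (7.75%) at least 2-fold lower in the combination than in the aPD1 library, and 195 of 2135 (9.13%) and 161 (7.54%) against the aCTLA4 library. In 44.4% and 45.2% of these genes, 1 cell held 50% or more of the UMIs of the higher side. On the log2 scale, Ctla4 was higher in the combination by 0.96 (0.48 to 1.48) than with aPD1 and by 1.07 (0.49 to 1.74) than with aCTLA4. Izumo1r stood at 582 CPM with the combination, against 339 with aPD1 and 211 with aCTLA4, log2 ratios of 0.77 (0.32 to 1.25) and 1.44 (0.81 to 2.18). In the lymphoid cluster 7 cells the ratios were 0.56 (0.00 to 1.15) and 1.41 (0.57 to 2.48) for Ctla4 and 0.51 (0.03 to 1.01) and 1.26 (0.55 to 2.10) for Izumo1r, so both genes kept the order there. Gzmb was lower in all of cluster 10 with the combination than with aPD1, at -1.10 (-1.42 to -0.79), and not separated from aCTLA4, at -0.09 (-0.50 to 0.34). Of the genes with the extreme ratios, Rgs2, a regulator of G protein signalling, had 37 UMIs in 21 combination cells and 0 with aCTLA4, which makes it higher by at least 2.82 on the log2 scale with a count of 0 read as 3 UMIs. Arg1, an enzyme of myeloid cells, had 28 UMIs in 10 combination cells and 0 with aCTLA4, and C1qc had 32 in 7 cells and 0. Xcl1 had 1 UMI with the combination, against 116 with aPD1 and 159 with aCTLA4. Zfp87 had 41 UMIs in 6 combination cells against 0 with aPD1, and Plscr3 had 0 against 22 in 5 cells. Other extreme genes were Dsel, BC030336, Engase and Mapk7, which were higher, and Psrc1, Il5, Gm15056, Ep400, Pitpnb, Gtpbp3 and Rsph9, which were lower in the combination. Of 12 regulatory T cell identity genes, 5 were above and 7 below the aPD1 library and none by 2-fold, with a median of -0.30. Of 11, 8 were above and 3 below the aCTLA4 library, 3 of them at least 2-fold above, with a median of 0.49. The summed level of the helper T cell list in cluster 10 was 1624, 954, 902 and 241 CPM in the aPD1, aCTLA4, combination and control libraries, and 109, 324, 147 and 120 in the lymphoid cluster 7 cells. Within the lymphoid cluster 7 cells the helper level was thus close to control with aPD1 and the combination, and above control with aCTLA4 on 11 UMIs.

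Cells with a Foxp3 UMI were compared with the other cells of cluster 10 in the same library, which gave 19, 8, 17 and 69 cells with a UMI and 63, 40, 74 and 113 without one in the aPD1, aCTLA4, combination and control libraries. The counts were summed per library and status and tested with edgeR's quasi-likelihood test with the library as a block, Foxp3 left out and Benjamini-Hochberg adjustment over all genes. Of 1689 genes, 0 were higher (0%) and 0 were lower (0%) in the cells with a Foxp3 UMI at an adjusted p under 0.05. At an unadjusted p under 0.05 there were 96 higher and 113 lower genes, and DESeq2 with the same block also called 0 and 0, with 50 and 56 at an unadjusted p under 0.05. On simulated counts the edgeR test recovered 88.9% of genes changed 4-fold and 23.9% of those changed 2-fold, so 2-fold differences were mostly missed there. The simulated counts varied more than the fitted common biological coefficient of variation of 0.234 in the real ones. They also had the same gene proportions in every library, so these rates are not the exact reach of the test here. Cells without a Foxp3 UMI are not cells without Foxp3, since 1 UMI is easily missed at this depth.

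**Figure D5:**
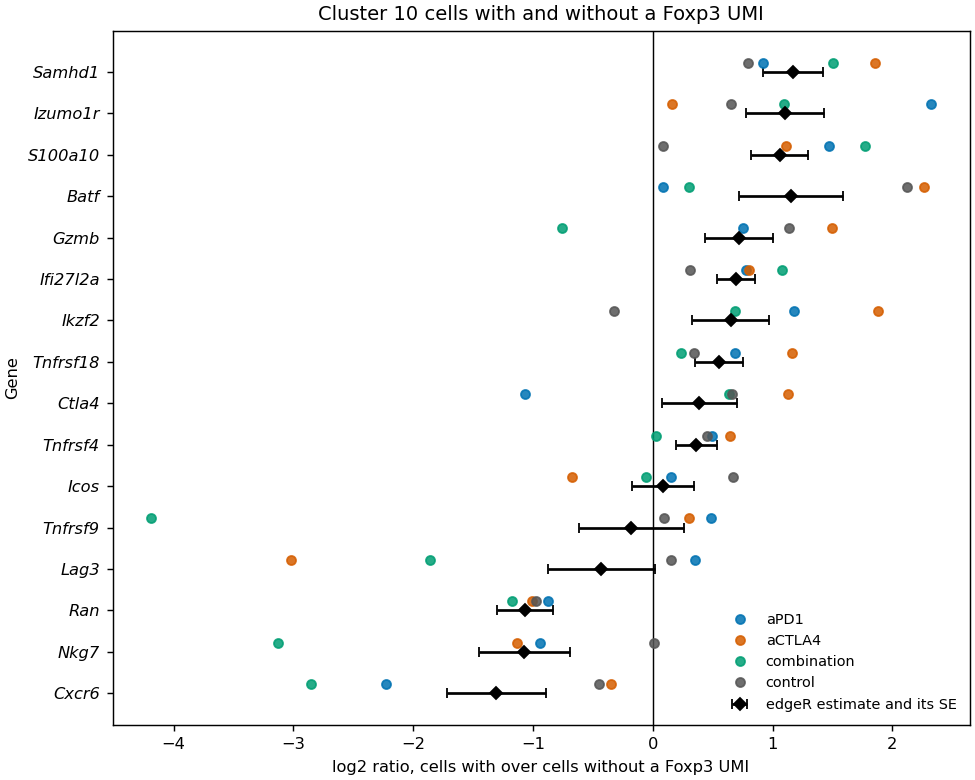
Log2 ratio of levels in cluster 10 cells with a Foxp3 UMI over cells without one, for 16 genes (rows). Black diamonds are the edgeR estimates over the 4 libraries with their standard errors, and coloured points are the single libraries. Samhd1, Ifi27l2a and Tnfrsf18 lie right of 0 and Ran and Cxcr6 left of 0 in every library, although no gene passed the adjusted threshold of 0.05.

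The smallest p-values belonged to genes that were at 0 in every cell with a Foxp3 UMI. Ccl1 had 0 CPM in these cells in all 4 libraries, against 518, 95.1, 410 and 82.6 in the cells without a Foxp3 UMI of the aPD1, aCTLA4, combination and control libraries (edgeR adjusted p = 0.0670). Cd8a was likewise at 0 in all 4, against 86.3, 233, 85.7 and 157 (edgeR adjusted p = 0.0934). Myo1g, a myosin of the lymphocyte membrane, stood at 240, 138, 220 and 261 in the cells with a Foxp3 UMI, against 79.7, 21.1, 67.3 and 62.9 in those without, an edgeR log2 ratio of 1.88 ± 0.353 (SE, adjusted p = 0.106). Myo1g was higher with a Foxp3 UMI in every library but did not pass the adjusted threshold. Izumo1r stood at 1027, 208, 1063 and 706 in cells with a Foxp3 UMI, against 206, 211, 502 and 448, an edgeR log2 ratio of 1.10 ± 0.326 (SE, adjusted p = 0.228), and was level in the aCTLA4 library. Ifi27l2a stood at 3628, 2907, 3446 and 3127, against 2124, 1681, 1640 and 2518, an edgeR log2 ratio of 0.70 ± 0.158 (SE, adjusted p = 0.142), and did not pass it either. Ran, a GTPase of nuclear transport, stood at 445, 415, 367 and 331, against 843, 899, 869 and 653, an edgeR log2 ratio of -1.07 ± 0.232 (SE, adjusted p = 0.142). Cxcr6 stood at 103, 485, 73.3 and 165, against 558, 655, 661 and 228 (edgeR log2 ratio -1.31 ± 0.411, SE, adjusted p = 0.255).

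Within the lymphoid cluster 7 cells the ratios of Izumo1r, Ifi27l2a, Ran, Tnfrsf18 and Samhd1 lay closer to 0, while Ccl1, Cd8a, Myo1g and Cxcr6 had too few counts there to be tested. The edgeR log2 ratio of cells with over cells without a Foxp3 UMI was -0.04 for Izumo1r, -0.06 for Ifi27l2a, -0.24 for Ran, -0.05 for Tnfrsf18 and 0.26 for Samhd1, a nucleotide hydrolase that had 1.17 ± 0.248 (SE) over all of cluster 10. Of 498 genes tested in these cells, edgeR called 0 higher and 0 lower, with 14 and 13 at an unadjusted p under 0.05. Of the 113 cells with a Foxp3 UMI, 110 lay in lymphoid cluster 7, while the cells without one include the lymphoid cluster 11 and remaining cells. Ikzf2 stood at 890, 761, 587 and 661 CPM in cells with a Foxp3 UMI, against 398, 211, 373 and 830 in cells without one (edgeR log2 ratio 0.65 ± 0.321, SE, adjusted p = 0.430). It was thus higher with a Foxp3 UMI in the antibody libraries and lower in the control library.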

How the data were processed

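The deposited files were 10x matrices of UMI counts, 1 per library, with 27998 genes on the mouse build mm10, and the authors' tables of cell clusters. Cell Ranger and Seurat are named, without versions, in the submitters' processing notes. The counts were used as deposited, with no cell filter beyond the authors' tables, and the authors' cluster numbers were taken over. Levels are UMIs per 1000000 UMIs (CPM) of a group of cells. Ratios between libraries carry exact conditional intervals of a Poisson ratio, with 0.5 UMIs added to both counts for the point value, and needed at least 20 UMIs over both libraries. Ratios of cluster 10 to the other T cell clusters were described for genes with at least 50 UMIs. Shares carry Clopper-Pearson intervals of 95%, and cells were thinned to 1000 UMIs where depths were compared. Counts of cells with and without a Foxp3 UMI were summed per library and tested with edgeR 4.0.16 (quasi-likelihood, filterByExpr, TMM scaling, library as a block), and with DESeq2 1.42.0 as an alternative, in R 4.3.3, with the Python packages scanpy 1.11.5, pandas 2.3.3, numpy 2.4.6 and scipy 1.17.1 for the rest. The test was tried on simulated data. The cells with and without a Foxp3 UMI of a pair come from the same library, and the correlations of their deviations from the group means were 0.0575, 0.112, 0.0134 and 0.285 in the aPD1, aCTLA4, combination and control libraries. Scrublet called 1 of 14491 cells a doublet and so had not worked, and no doublets were removed. As an alternative the 3% of cells with the highest scores were left out, which were 435 cells, 12 of them in cluster 10.

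Named were a fixed set of key genes, the 5 highest and 5 lowest genes of each comparison between libraries with at least 100 CPM in the higher library, the 15 highest and 10 lowest genes against the other T cell clusters, the 5 genes most like Foxp3, and list members. Genes named outside this rule, among them Lyz2, Ccl4, Crtam, the genes of the lymphoid cluster 11 cells and the genes of the Foxp3 comparison, were chosen after their values were seen. The members and the gene lists were chosen with earlier results of these data known. Of the listed genes, 10 are not analysed here, and some genes that the rule names are not reported here.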

Additional observations from a re-analysis of the deposited data

Results flagged for a closer look

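Ikzf2 in cells with over cells without a Foxp3 UMI had a log2 ratio of 1.17 in the aPD1 library, 1.88 in the aCTLA4 library and 0.68 in the combination library, against -0.33 in the control library. The control library thus lay on the opposite side of 0 from the antibody libraries, and the difference between libraries was not tested. The cells without a Foxp3 UMI had a different makeup in each library, since 29 of 63, 17 of 40 and 36 of 74 of them were lymphoid cluster 7 cells in the aPD1, aCTLA4 and combination libraries, against 89 of 113 in the control library. With 1 library per antibody group no outlier among replicates could be looked for.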

How the results depend on the processing

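The share of cluster 10 stayed below control under every alternative tried, and its log2 ratio moved further from 0 in most. Beside -0.48 for aPD1, it was -1.0 over all listed cells, -1.19 for cluster 10 cells with a Foxp3 UMI, -1.37 for T cells with one, -1.82 for thinned T cells with one and -1.07 for lymphoid cluster 7 cells. Beside -1.40 for aCTLA4, the last 4 of these settings gave -2.59, -2.35, -2.41 and -2.19, and beside -1.18 for the combination -2.20, -2.43, -2.0 and -1.75. Genes at least 2-fold apart from control in the aPD1, aCTLA4 and combination libraries numbered 1199, 1380 and 1037 at 10 counts or more, 217, 285 and 206 at 50, 3995, 3627 and 3936 with no minimum, 348, 371 and 315 in thinned cells and 305, 389 and 331 in cells with a Foxp3 UMI. Fewer genes are tested in smaller counts. In cells with a Foxp3 UMI 1449, 1329 and 1420 genes were tested, of which 21%, 29.3% and 23.3% were 2-fold apart, a larger share than the 18%, 23.9% and 15% of all cells, and in thinned cells the shares were 18.7%, 22.1% and 16.1%. TMM scaling moved the median of all genes by 0.16 on the log2 scale for aCTLA4.

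Of 1104 gene ratios under alternatives, 985 moved by no more than counting error, 93 by more and 26 changed sign. The settings that changed only the minimum count left every ratio as it was, so the 92 ratios of each could not move. A change of sign was counted, and is listed here, only where the interval of the main ratio excluded 0. In cells with a Foxp3 UMI, the ratio changed sign with aPD1 for Foxp3 (0.50), Ikzf2 (0.45), Itgae (0.70), Areg (-0.38) and Cxcr6 (-0.49), with aCTLA4 for Foxp3 (0.65), Ikzf2 (0.26) and Tnfrsf18 (0.16), and with the combination for Foxp3 (0.76), Cxcr6 (-0.88) and Ccr7 (-0.64). Each of these cells was chosen for holding a Foxp3 UMI, so Foxp3 could not be absent from it. Their median depth was 1227, 1086.5 and 1331 UMIs in the aPD1, aCTLA4 and combination libraries, against 1847 in the control library. Their Foxp3 ratios are therefore no check on the main ones. In lymphoid cluster 7 cells, such changes of sign were found with aPD1 for Foxp3 (0.41), Ikzf2 (0.26), Tnfrsf9 (0.24), Itgae (0.12), Areg (-0.43) and Cxcr6 (-1.22), with aCTLA4 for Foxp3 (0.41) and Icos (0.57), and with the combination for Foxp3 (0.40), Ikzf2 (0.035) and Cxcr6 (-0.091). Pdcd1 with aPD1 was -0.37 in thinned cells, and Batf with the combination 0.049 in thinned cells, 0.054 without the highest doublet scores and 0.013 without its top cell. The cause was not tested.

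Against the other T cell clusters, lymphoid cluster 7 cells alone had 56 genes higher, and clusters 3, 6 and 8 alone left 48 lower. In the edgeR test of the Foxp3 UMI, 16 genes were higher and 73 lower with no filter on low counts, and 11 and 8 with each gene capped at 3 UMIs a cell. Leaving out 1 library in turn gave 0 to 2 higher and 0 to 3 lower genes, with 2 and 3 without the combination library. Without the replicate block the counts were 0 and 0. The lymphoid cluster 7 setting, the Foxp3 UMI in thinned T cells, the cap and the omission of a top cell were chosen after seeing the data.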

Other observations

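Cells with a Foxp3 UMI were also found outside cluster 10. Of the 172, 38 lay in T cell clusters 3, 6, 8 and 9, of which 17 in cluster 9 (2.88% of its cells), and 6 lay in cluster 16 (3.82% of its cells). Among the 38, Ikzf2 had a UMI in 65.8%, Izumo1r in 47.4%, Ctla4 in 78.9% and the division marker Mki67 in 42.1%. These 38 cells were deep, at a median of 3336.5 UMIs, against 1449 in the lymphoid cluster 7 cells and 1959 in all cells of clusters 3, 6, 8 and 9. Thinned to 1000 UMIs, the 37 cells deep enough had a UMI of Ikzf2 in 37.8%, of Izumo1r in 24.3%, of Ctla4 in 43.2%, of Mki67 in 10.8% and of Cd8a in 18.9%. Before thinning, Mki67 had a UMI in 11.5% of all cells of clusters 3, 6, 8 and 9 and in 3.20% of the lymphoid cluster 7 cells of cluster 10. Cd8a had a UMI in 23.7% of the 38 cells, against none of the 281 lymphoid cluster 7 cells. The lymphoid cluster 7 itself held 325 cells, of which 281 lay in cluster 10, 26 in cluster 3, 16 in cluster 6, 1 in cluster 8 and 1 in cluster 9. These values share their cells with the clustering and carry no test.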
